A study of Homo sapiens with 6 samples.

Results

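Integrin β subunits are encoded by the 8 genes ITGB1 to ITGB8. The members were taken as the rows of the raw count table whose gene symbol equals one of these names, which gave 8 of 58735 rows. All 8 genes had a row, and 7 of them were among the 15935 genes that passed the filter on low counts and were tested. The family was selected on measured values of the same comparison, TAK1 shRNA against scrambled shRNA, in which ITGB1 and ITGB3 were already known to be lower. The values of the members are therefore a description. No p-value of a member is printed, and a call of a member states which side of the thresholds it fell on and is no evidence beyond that.

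RD is an established cell line of embryonal rhabdomyosarcoma (ERMS), a soft tissue cancer whose cells carry features of the skeletal muscle lineage. RD cells were transduced with lentiviral particles that carried either a scrambled shRNA (n = 3) or an shRNA against TAK1 (n = 3), and messenger RNA was sequenced in bulk. Both groups thus share the line and the viral transduction, and 1 TAK1 shRNA was used, so the knockdown and other effects of that construct cannot be told apart. The labels number 3 samples in each group and do not say whether these were separate transductions, so p-values measure the spread between these samples, which may be technical.

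Total counts on genes were 29125436, 31886885 and 31334733 in replicates 1, 2 and 3 of scrambled shRNA and 28839898, 34469323 and 32710522 in those of TAK1 shRNA. Levels are given in CPM, computed with library sizes scaled by the trimmed mean of M-values (TMM). In these libraries 3 counts amount to between 0.0848 and 0.105 CPM. A gene is called where edgeR gave an adjusted p under 0.05 (quasi-likelihood test; Benjamini-Hochberg over all genes tested) together with a log2 fold change whose size reached 0.25. A fold change compares TAK1 shRNA with scrambled shRNA, so a negative value stands for a lower level after TAK1 shRNA.

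Integrins are receptors made of 1 α and 1 β chain that cross the plasma membrane. The outer part binds matrix proteins such as fibronectin, laminin, collagen and vitronectin or receptors on other cells, and the short tail of most β chains recruits talin, kindlin and filamin, which connect the receptor to actin. The β chain largely sets the class of receptor. In the skeletal muscle lineage, β1 is the partner of most α chains, takes part in myoblast adhesion and fusion, and forms the α7β1 laminin receptor of muscle fibres. TAK1, encoded by MAP3K7, is a kinase that relays signals of cytokine, toll-like and TGF-β receptors to the JNK, p38 and NF-κB pathways.

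The targeted gene was examined first, since it checks the labels. MAP3K7 stood at 77.8, 76.4 and 77.5 CPM in scrambled shRNA and at 30.5, 33.6 and 29.9 CPM in TAK1 shRNA. The values in all 3 TAK1 shRNA samples were far below those of the control samples, with no overlap. The log2 fold change was -1.30 ± 0.061 (SE), and edgeR gave an adjusted p of 3.61e-15.

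The labelled cell type was compared with 10 myogenic markers. A mean of at least 1 CPM was reached by 8 of them, and their summed level was 2378 ± 10.3 CPM in scrambled shRNA and 2318 ± 57.3 CPM in TAK1 shRNA (SD, n = 3 in each group). CHRNA1, a subunit of the muscle acetylcholine receptor, was the most abundant in CPM, with a mean of 810.1 CPM over the 6 samples. The other 7 that reached this level were MYOD1, MYOG, DES, CDH15, PAX7, MYMK and NCAM1. MYF5 had no count in any sample, and MYF6 stayed at or under 0.0106 CPM on average in both groups. Within the list, CHRNA1 was called lower (-0.40) and MYOD1 (0.37), MYOG (0.27) and MYMK (0.98) were called higher. The part of these differences in the values of the integrins was not tested.

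Among the 7 subunits tested, ITGB1, ITGB3 and ITGB5 were called lower and ITGB2 was called higher in TAK1 shRNA. Of all 15935 genes tested, 1805 (11.3%) were called lower and 1875 (11.8%) were called higher. Since the family was chosen on this comparison, nothing is read from the 3 and 1 members called beside these shares. ITGB4, ITGB6 and ITGB8 were not called, and ITGB7 did not pass the filter. Scaling by library size alone moved the share of higher calls among all calls from 51.0% to 62.7%, and the log2 fold changes of the 7 subunits kept their signs under all 14 other settings that tested them.

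**Figure D1:**
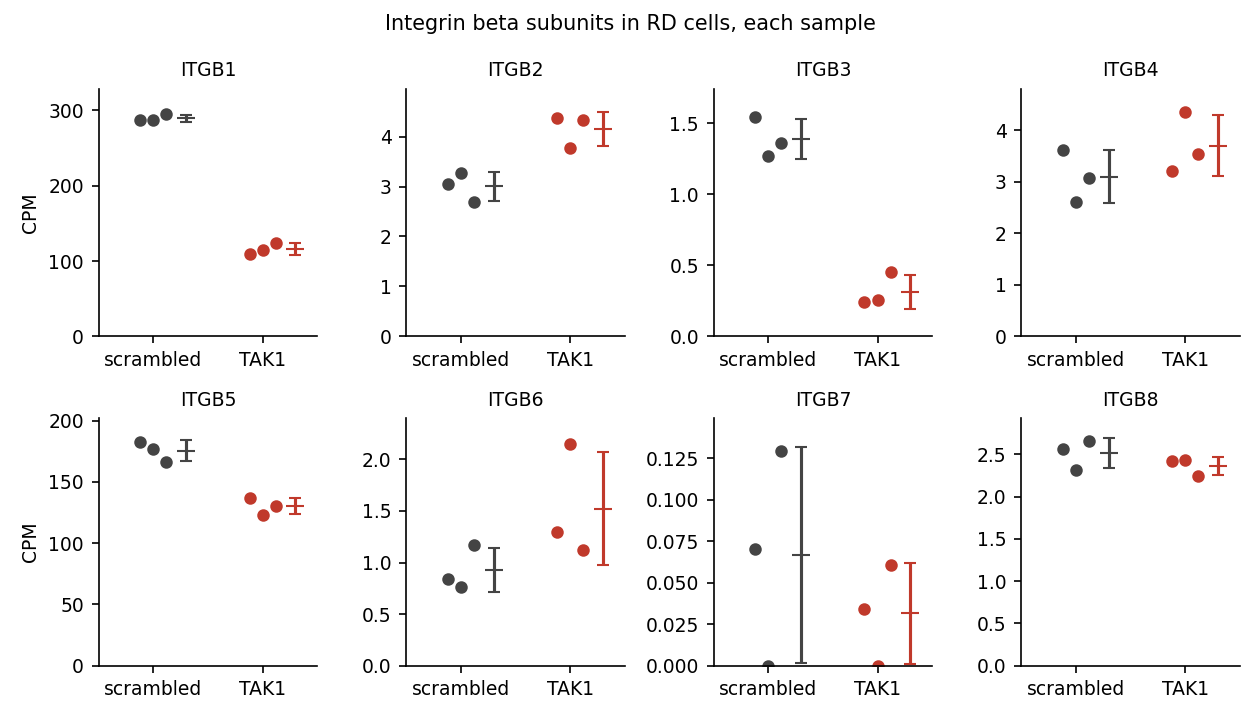
Level of each integrin β subunit in CPM, on an axis that starts at 0 in every panel. Points are single samples (grey, scrambled shRNA; red, TAK1 shRNA) and bars show the mean ± SD of 3 samples. The 2 groups do not overlap for ITGB1, ITGB2, ITGB3 and ITGB5, and overlap for ITGB4, ITGB6, ITGB7 and ITGB8. The share of all genes without overlap was not counted, so nothing about the family is read from this.

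ITGB1 encodes the β1 chain, the common partner of 12 α chains, and so serves fibronectin, laminin and collagen receptors. It lies on the minus strand of chromosome 10 in GRCh38 (chr10:32887273-33005792), and its canonical transcript in GENCODE 44 has 16 exons. ITGB1 reached 287, 287 and 295 CPM in scrambled shRNA and 109, 115 and 124 CPM in TAK1 shRNA. The control samples lay close together, the TAK1 shRNA samples were all low, and the groups did not overlap. The means were 289 ± 4.48 and 116 ± 7.66 CPM (SD, n = 3), so TAK1 shRNA samples held 40.2% of the control level, at a log2 fold change of -1.32 ± 0.049 (SE). With each sample left out in turn, the value ran from -1.38 to -1.27. These are bulk samples, in which fewer cells that express a gene and less of its RNA per cell cannot be told apart.

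Placed among all genes tested, ITGB1 had the 69th lowest log2 fold change of 15935, with MAP3K7 itself at rank 71. Among the 2486 genes whose mean over the 6 samples reached 100 CPM, it was the 4th lowest. Its counts carry an uncertainty from a copy. Of the 3661 windows of 75 bases in its canonical transcript, 535 (14.6%) also occur in the pseudogene ITGB1P1, which has no row under that symbol in the count table. The handling of reads with several matches is not given in the sources used here. The longest run of bases that ITGB1 shares with another β subunit was 18. Over all subunits the longest was 34, between ITGB3 and ITGB8, so no window of 75 bases is common to 2 of them.

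The sequences before the starts of ITGB1 and ITGB5 are shown because both genes were called lower and had the highest levels of the family. The table of RefSeq promoters used here (build GRCh38.p14) has entries for 5 of the 8 subunits, ITGB1, ITGB5, ITGB6, ITGB7 and ITGB8; entries for ITGB2, ITGB3 and ITGB4 were missing from it. The motifs GGGCGG (GC box), GGAATG (bound by TEAD factors), TGANTCA (AP-1), CCAAT (bound by NF-Y) and TATAAA (bound by TBP) were searched on both strands in the 250 bases before each start. The stretch of each window free of annotated exons is printed from 5′ to 3′ on the strand of the gene, with matches in capitals. For ITGB1 it is chr10:32958326-32958436 on the minus strand, from base -206 to base -96 before the start of the canonical transcript. For ITGB5 it is chr3:124887366-124887599 on the minus strand, from base -234 to base -1. ITGB1 has 2 entries and ITGB5 has 3, and the entry at the start of the canonical transcript is shown for each.
ITGB1: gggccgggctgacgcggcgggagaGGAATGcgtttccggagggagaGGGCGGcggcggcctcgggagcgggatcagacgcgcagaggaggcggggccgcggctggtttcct
ITGB5: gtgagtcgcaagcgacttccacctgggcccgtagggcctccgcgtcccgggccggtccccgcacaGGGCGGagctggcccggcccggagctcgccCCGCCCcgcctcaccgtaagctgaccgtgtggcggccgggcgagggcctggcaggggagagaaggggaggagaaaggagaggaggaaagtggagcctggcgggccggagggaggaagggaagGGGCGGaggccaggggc
In the full window of 250 bases, ITGB1 held 3 GC boxes and 1 GGAATG, the latter from base -182 to base -177. The ITGB5 window held 3 GC boxes. The shares of G and C were 78.4% and 75.2%, against a median of 58.0% over 35116 promoter entries. A GC box occurred in 42.6% of all entries and GGAATG in 11.9%. Neither window held the motifs of AP-1, NF-Y or TBP, which occurred in 6.6%, 32.0% and 10.7% of entries. A motif of NF-κB was searched as well, was in neither window, and occurred in 1.7% of entries. Other windows of the family were mixed. The other ITGB1 entry had 41.6% G and C, no GC box and 3 matches to TATAAA. Of the other ITGB5 entries, 1 had 52.8% G and C with 2 GC boxes, and 1 had 56.4% with no motif searched. ITGB6 and ITGB7 had 30.0% and 49.6% G and C, with no motif searched. The window of ITGB8, which was not called, had 71.2% G and C, 2 GC boxes and 1 CCAAT. A match is a description of the letters and says nothing about binding.

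ITGB5 encodes the β5 chain, which pairs with αV in a vitronectin receptor, and lies on chromosome 3 (chr3:124761948-124901418, minus strand, 15 exons). Its level was 183, 177 and 166 CPM in scrambled shRNA and 137, 123 and 131 CPM in TAK1 shRNA. The TAK1 shRNA samples were all below the control samples, with a gap between the groups wider than the spread within either. The mean fell from 175 ± 8.52 to 130.2 ± 6.59 CPM (SD, n = 3), or to 74.2% of the control level. The log2 fold change was -0.43 ± 0.051 (SE), from -0.47 to -0.39 with each sample left out in turn. None of the 75-base windows of ITGB5 was found in another annotated gene.

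ITGB3 encodes β3, the partner of αIIb in the platelet fibrinogen receptor and of αV in a receptor for vitronectin and osteopontin. It lies on the plus strand of chromosome 17 (chr17:47253827-47313743). The counts themselves were low, at 44, 40 and 42 in scrambled shRNA and 7, 9 and 15 in TAK1 shRNA, which correspond to 1.55, 1.27 and 1.36 CPM and to 0.239, 0.255 and 0.454 CPM. All 3 TAK1 shRNA samples were below all 3 control samples, and replicate 3 was the highest of its group. The log2 fold change of -2.12 ± 0.39 (SE) was the 4th lowest of all genes tested, and ran from -2.48 to -1.97 with a sample left out. ITGB3 passed the filter through the control group, in which all 3 samples exceeded its minimum of 0.316 CPM; 1 of the 3 TAK1 shRNA samples did.

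Reads of ITGB3 are less certain than those of ITGB1. On the same strand, exons of the read-through gene ENSG00000259753 cover 33.2% of the exon bases of ITGB3, and 37.5% of its 75-base windows occur in another annotated gene. Markers of platelets and megakaryocytes, the cells best known for β3, are given beside it. Of 5 such markers 1 had a mean of at least 1 CPM, ITGA2B at 1.60 CPM, and GP1BA was at 0.790 CPM, while PF4, PPBP and GP9 had no count in any sample. Their summed level was 2.15 ± 0.440 CPM in scrambled shRNA and 2.63 ± 0.466 CPM in TAK1 shRNA (SD, n = 3).

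An shRNA can also repress transcripts whose 3′ UTR matches bases 2 to 8 of its guide strand, the seed. For the TAK1 shRNA the matching letters are CATATTA, if the guide starts opposite the last base of the target given in the study's methods. For every gene, the longest 3′ UTR annotated in GENCODE 44 (GRCh38) was searched on the transcript strand. The sites found in the β subunits are printed 5′ to 3′ with 10 bases on each side and the match in capitals. The ITGB3 sites lie on the plus strand in its last exon, at chr17:47312227-47312253 and chr17:47312915-47312941, and the ITGB8 site at chr7:20415180-20415206, also on the plus strand.
ITGB3 site 1: tttgcatccaCATATTAgggaagagga
ITGB3 site 2: gacaagttgcCATATTAggagtcagtt
ITGB8 site: tacatttgcaCATATTAatatagaaat
ITGB3 thus held 2 matches in 3539 bases. Of the 1092 genes whose 3′ UTR was within 10% of this length, 25.1% held at least 1 match and 3.8% held 2 or more. ITGB8, which was not called, held 1 match in 5757 bases, and 34.2% of 517 genes of similar length held at least 1. The 3′ UTRs of ITGB1, with 2010 bases, and of ITGB5, with 1675 bases, held 0, as did those of ITGB2, ITGB4, ITGB6 and ITGB7. Over all 19249 genes the share with a match was 11.9%. Whether a match took part in any difference was not tested.

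**Figure D2:**
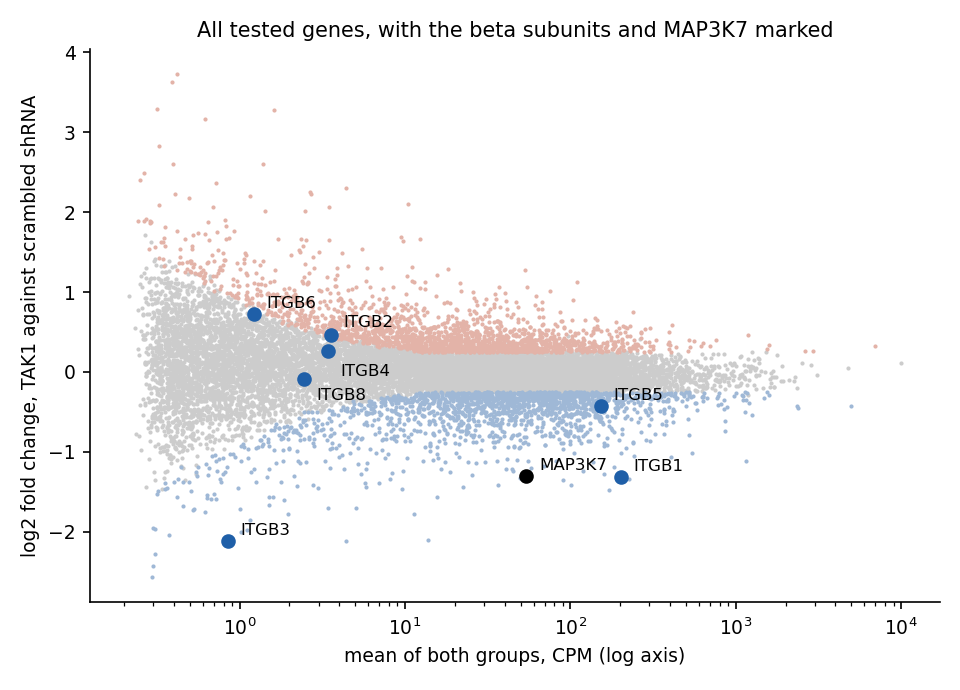
Log2 fold change of each of the 15935 genes tested against its mean level in CPM (log axis). Pale blue and pale red points were called lower and higher, grey points were not called, and the 7 β subunits tested (dark blue) and MAP3K7 (black) are labelled. ITGB1 lies near MAP3K7 at -1.32, and ITGB3 lies lower, at -2.12, among genes near 1 CPM.

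ITGB2 encodes β2, the chain of leukocyte integrins, and lies on chromosome 21 (chr21:44885953-44931989, minus strand). Its counts were 87, 103 and 83 in scrambled shRNA and 128, 133 and 143 in TAK1 shRNA. In CPM these were 3.06, 3.27 and 2.69 against 4.37, 3.76 and 4.33. All TAK1 shRNA samples lay above the control samples, but the gap was narrow, between 3.27 and 3.76 CPM. The log2 fold change was 0.46 ± 0.17 (SE). This call was lost with DESeq2 (0.46), with no filter (0.46) and without any 1 of 5 of the 6 samples (0.39 to 0.53), and it held without TAK1 shRNA replicate 2 (0.53).

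Markers of leukocytes are given beside this value. None of 6 had a mean of at least 1 CPM, and their summed level was 0.317 ± 0.113 CPM in scrambled shRNA and 0.280 ± 0.113 CPM in TAK1 shRNA (SD, n = 3). CD14 was the most abundant at 0.260 CPM, and CD3E and CD53 had no count in any sample. The leukocyte α partners ITGAD, ITGAL, ITGAM and ITGAX did not pass the filter either. Exons of the antisense gene ITGB2-AS1 cover 4.15% of the exon bases of ITGB2. ITGB2-AS1 had counts of 0, 1 and 0 in scrambled shRNA and 2, 4 and 4 in TAK1 shRNA, and since strand use is not given in the sources used here, reads of the pair cannot be told apart over the shared bases.

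ITGB7 encodes the other leukocyte β chain, which pairs with α4 and αE. It had counts of 2, 0 and 4 in scrambled shRNA and 1, 0 and 2 in TAK1 shRNA, too few to pass the filter, so no fold change is given. With no filter it was tested and not called. At these counts, whether its level differed between the groups was not resolved. ITGAE, its partner, was measured well above that, at 18.9 ± 0.954 and 19.5 ± 1.52 CPM (SD, n = 3), and was not called. Exons of ZNF740 on the opposite strand cover 42.3% of the exon bases of ITGB7.

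ITGB4 encodes β4, the laminin-binding chain of hemidesmosomes, and ITGB6 encodes β6, an epithelial partner of αV that releases active TGF-β. ITGB4 stood at 3.62, 2.60 and 3.08 CPM in scrambled shRNA and at 3.21, 4.36 and 3.54 CPM in TAK1 shRNA. The groups overlapped, and the log2 fold change of 0.26 ± 0.18 (SE) was not called. It ran from 0.13 to 0.39 with each sample left out in turn. ITGB6 stood at 0.843, 0.761 and 1.17 CPM against 1.30, 2.15 and 1.12 CPM. Here replicate 2 of TAK1 shRNA was the highest, and replicate 3 was under the highest control sample. The log2 fold change of 0.73 ± 0.32 (SE) was not called with all samples, was called without TAK1 shRNA replicate 3 (0.90), and was 0.38 without TAK1 shRNA replicate 2. Exons of ENSG00000285155 on the same strand cover 16.7% of the exon bases of ITGB6.

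Epithelial markers are given beside these 2 chains. Of 7 markers, KRT8 and KRT18 had a mean of at least 1 CPM. The summed level was 60.0 ± 3.28 CPM in scrambled shRNA and 29.4 ± 1.74 CPM in TAK1 shRNA (SD, n = 3), most of it from KRT18, the most abundant. KRT19 and CDH1 had no count in any sample, and EPCAM, KRT5 and ESRP1 were at or below 0.234 CPM on average. KRT18 was called lower, at 56.1 ± 3.61 and 26.4 ± 1.10 CPM, with a log2 fold change of -1.09. The part of this difference in the values of the integrins was not tested.

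ITGB8 encodes β8, which pairs with αV, binds latent TGF-β and has a tail unlike the others. It lies on chromosome 7 (chr7:20330702-20415754, plus strand). It reached 2.57, 2.32 and 2.66 CPM in scrambled shRNA and 2.43, 2.43 and 2.24 CPM in TAK1 shRNA. The groups overlapped and differed by less than the spread between replicates, at a log2 fold change of -0.09 ± 0.20 (SE), from -0.14 to -0.04 with a sample left out. Of 5 endothelial markers, 1 had a mean of at least 1 CPM, TEK at 2.65 CPM, and CDH5 and KDR had no count in any sample. Their summed level was 3.21 ± 0.383 CPM in scrambled shRNA and 2.27 ± 0.484 CPM in TAK1 shRNA (SD, n = 3).

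To compare the subunits with each other, CPM was divided by the length of all annotated exons in kilobases (RPKM). In scrambled shRNA the order was ITGB5 at 26.9 ± 1.31, ITGB1 at 19.9 ± 0.307, ITGB4 at 0.459 ± 0.0753 and ITGB2 at 0.412 ± 0.0401 RPKM. ITGB3 followed at 0.204 ± 0.0207, ITGB8 at 0.166 ± 0.0117, ITGB6 at 0.160 ± 0.0370 and ITGB7 at 0.0150 ± 0.0146 RPKM (SD, n = 3). ITGB4 and ITGB2 overlapped, and ITGB6 overlapped both ITGB8 and ITGB3, so their order is not resolved. In TAK1 shRNA, ITGB5 stood at 21.0, 18.9 and 20.1 RPKM and ITGB1 at 7.50, 7.91 and 8.54 RPKM. They were followed by ITGB2 at 0.569 and ITGB4 at 0.548, which overlapped, and then by ITGB6 at 0.263, ITGB8 at 0.156, ITGB3 at 0.0463 and ITGB7 at 0.00709 RPKM. By its mean, ITGB3 thus stood 5th in the control samples, overlapping ITGB6, and 7th in the TAK1 shRNA samples. Per length of the longest or canonical transcript it stood 6th in the control samples, overlapping ITGB8 and ITGB6, and again 7th in the TAK1 shRNA samples.

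The order of ITGB1 and ITGB5 rests on the length chosen. Exons of ITGB1 cover 14561 bases in all, while its canonical transcript has 3735 bases; for ITGB5 these lengths are 6515 and 4440. Per kilobase of the longest transcript, ITGB1 was above ITGB5 in scrambled shRNA, at 51.6 ± 0.798 and 39.5 ± 1.92, and below it in TAK1 shRNA, at 20.7 ± 1.36 and 29.3 ± 1.48 (SD, n = 3). Per kilobase of the canonical transcript, a length chosen after the data were seen, ITGB1 was at 77.5 ± 1.20 in scrambled shRNA, and in TAK1 shRNA it overlapped ITGB5, at 31.1 ± 2.05 and 29.3 ± 1.48. Which transcripts the cells used was not measured.

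The share of ITGB1 in the summed RPKM of the 8 subunits was 39.9%, 40.9% and 42.9% in scrambled shRNA and 25.0%, 27.7% and 28.3% in TAK1 shRNA. The share of ITGB5 was 57.0%, 56.4% and 54.1% against 70.0%, 66.3% and 66.6%. The samples of the groups did not overlap in either share, with ITGB1 lower and ITGB5 higher after TAK1 shRNA. ITGB1 and ITGB5 make up most of the sum, so a lower share of ITGB1 goes with a higher share of ITGB5. The family was chosen with the lower ITGB1 known, so both shares restate it and are a description. The summed RPKM itself was 48.2 ± 1.05 and 29.6 ± 0.858 (SD, n = 3), and ITGB5 was lower in level although its share was higher. With the longest transcript as the length, the mean share of ITGB1 was 55.5% and 39.7%, and with the canonical transcript it was 64.9% and 49.2%.

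**Figure D3:**
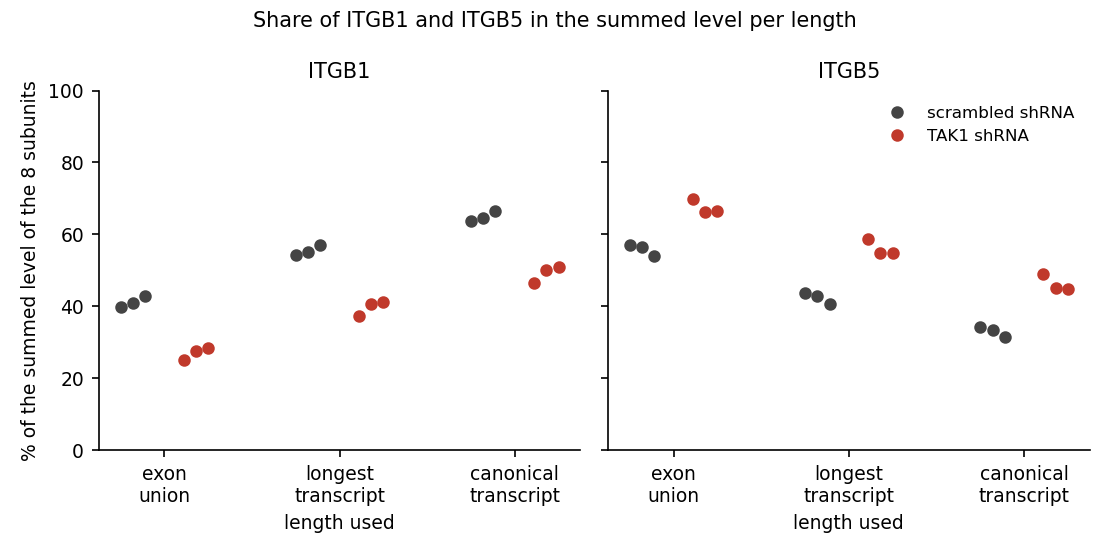
Share of ITGB1 (left) and ITGB5 (right) in the summed level per length of the 8 β subunits, in percent, for 3 choices of length. Points are single samples (grey, scrambled shRNA; red, TAK1 shRNA). With each length the share of ITGB1 was lower and that of ITGB5 higher in all 3 TAK1 shRNA samples than in all 3 control samples. The shares depend on each other and restate the lower ITGB1 known when the family was chosen.

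Other rows carry the name of a β subunit without being one. ITGB1BP1, which encodes ICAP-1, a protein that binds the β1 tail and holds the receptor inactive, stood at 67.9 ± 0.670 and 60.2 ± 1.35 CPM (SD, n = 3). Its log2 fold change of -0.17 was under the fold threshold. ITGB3BP, which encodes a centromere protein, stood at 39.5 ± 1.81 and 34.8 ± 5.97 CPM, and ITGB1BP2, which encodes melusin, at 1.04 ± 0.287 and 0.711 ± 0.0828 CPM, and neither was called. ITGB1-DT, which starts opposite ITGB1 and overlaps 2.75% of its exon bases, had 2 counts in scrambled shRNA and 4 in TAK1 shRNA over all samples. ITGB5-AS1 had no count in any sample. ITGBL1, which encodes an integrin-like protein, had 4 counts, all in scrambled shRNA replicate 3.

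Of the α chains, 12 are partners of β1, and the list also holds partners of other β chains. This list and those below were written with earlier results of these data known. Adjusted p-values of their genes are therefore a description and no separate support. Of 18 α subunits, 13 passed the filter, of which 2 (15.4%) were called lower and 1 (7.69%) higher, against 11.3% and 11.8% of all genes tested. The median log2 fold change of the 13 was -0.15, against 0.02 for all genes tested. ITGAV, the αV chain that pairs with β1, β3, β5, β6 and β8, fell from 318 ± 9.59 to 212 ± 7.21 CPM (SD, n = 3). This amounts to a log2 fold change of -0.58 ± 0.045 (SE; edgeR adjusted p = 6.85e-11), and all TAK1 shRNA samples were below all control samples.

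ITGA7, the α7 chain of the muscle laminin receptor, fell from 64.0 ± 4.74 to 47.8 ± 5.52 CPM (SD, n = 3), at a log2 fold change of -0.42 ± 0.073 (SE; edgeR adjusted p = 5.47e-05). ITGA1, the α1 chain of a collagen receptor, rose from 52.0 ± 1.13 to 63.7 ± 4.34 CPM, at 0.29 ± 0.060 (edgeR adjusted p = 0.00034), and lost this call without TAK1 shRNA replicate 3 (0.24). The other chains tested were not called. ITGA3 (-0.24), ITGA4 (0.18), ITGA6 (-0.15) and ITGA9 (-0.25 after rounding, just inside the limit) had an adjusted p under the threshold but a log2 fold change smaller than the limit. ITGA5, the fibronectin-binding α5 chain, had a log2 fold change of -0.04 with overlapping groups. ITGA2, ITGA2B, ITGA10 and ITGA11 were low, with group means of at most 2.03 CPM, and were not called, and ITGA8 and ITGAD had no count in any sample.

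**Figure D4:**
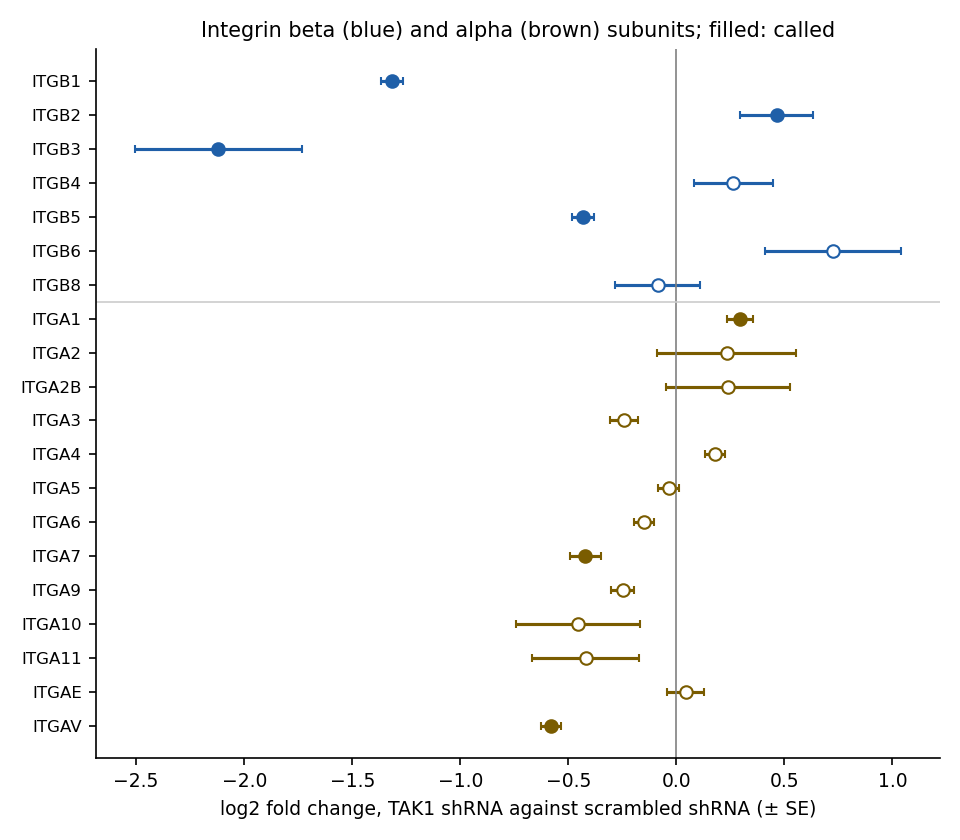
Log2 fold change (± SE) of the 7 β subunits (blue) and 13 α subunits (brown) that passed the filter. Filled points were called and open points were not. ITGB3 and ITGB1 lie lowest, ITGAV is the lowest of the called α subunits, and low-count genes such as ITGB6 and ITGA2 carry wide error bars.

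Summed over its 12 α partners, the level per kilobase of exon was 106 ± 0.705 RPKM in scrambled shRNA and 95.6 ± 1.29 RPKM in TAK1 shRNA (SD, n = 3). ITGB1 itself stood at 19.9 and 7.98 RPKM. The ratio of ITGB1 to this sum was 0.185, 0.187 and 0.189 in scrambled shRNA and 0.0785, 0.0838 and 0.0881 in TAK1 shRNA, with no overlap. It largely restates the lower ITGB1 that was known when the family was chosen. With the longest transcript as the length the mean ratio was 0.309 and 0.141. The sum of the 5 β partners of αV, divided by ITGAV, was 2.88 ± 0.147 and 2.59 ± 0.132, and the groups overlapped. With the longest transcript it was 2.30 ± 0.0976 and 1.90 ± 0.0787, and they did not. These are ratios of RNA and say nothing of the receptors at the surface.

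Proteins that bind the β tail or regulate activation were next. Of 27 genes in the list, 26 were tested, 7 (26.9%) were called lower and 3 (11.5%) higher, against 11.3% and 11.8% of all genes tested, with a median log2 fold change of -0.16. FERMT2, which encodes kindlin-2, an activator that binds β tails, fell from 89.7 ± 2.83 to 51.7 ± 3.80 CPM (SD, n = 3), at -0.79 ± 0.059 (SE; edgeR adjusted p = 2.43e-11). LIMS1, which encodes PINCH-1, the partner of integrin-linked kinase, fell by 0.67 on the log2 scale, and PXN, the adaptor paxillin, by 0.62. ACTN4, which encodes an actin crosslinker, fell by 0.50. TNS1, which encodes tensin-1, rose by 0.45 and FERMT1, which encodes kindlin-1, by 0.42. FLNC, the muscle filamin, rose by 0.27, a call that was lost without scrambled shRNA replicate 3 (0.24) or TAK1 shRNA replicate 1 (0.23). TLN1, the main talin, stood at 408 ± 18.9 and 409 ± 19.4 CPM and was not called; it lies outside the rule for named genes and was chosen after its values were seen.

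Of 29 ligands 22 were tested, with 6 (27.3%) called lower and 2 (9.09%) higher, against 11.3% and 11.8% of all genes tested, and a median of -0.05. CCN2 and CCN1, matrix-associated ligands listed in the table as CTGF and CYR61, had log2 fold changes of -0.79 and -0.55 and were called lower. LAMC1, the laminin γ1 chain, fell from 1357 ± 48.4 to 1039 ± 38.8 CPM (SD, n = 3), at -0.39, and COL4A1, a chain of basement membrane collagen, fell by 0.36. FN1, fibronectin, rose from 1005 ± 14.3 to 1381 ± 98.5 CPM, at 0.46 ± 0.046 (SE; edgeR adjusted p = 9.16e-09), and LAMA5 rose by 0.34. Of the α5β1 fibronectin receptor, ITGB1 was thus lower and ITGA5 not called, while its ligand FN1 was higher.

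Integrins that contain αV can release TGF-β from its latent complex. All 9 genes of that list were tested, of which 3 (33.3%) were called lower and 2 (22.2%) higher, against 11.3% and 11.8% of all genes tested, with a median of 0.01. LRRC32, which encodes GARP, an anchor that holds latent TGF-β at the cell surface, fell from 8.47 ± 0.226 to 3.12 ± 0.403 CPM (SD, n = 3), at -1.44 ± 0.14 (SE; edgeR adjusted p = 5.75e-09). Of the latent TGF-β binding proteins, LTBP2 fell by 0.35 and LTBP1 by 0.28, and LTBP4 rose by 0.32. TGFB3 rose by 0.35. The call of LTBP1 was lost with scaling by library size alone (-0.23).

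Among 16 membrane partners, all tested, 5 (31.2%) were called lower, against 11.3% of all genes tested, and the other 11 were not called, with a median of -0.09. Of all genes tested, 11.8% were called higher. PLAUR, the urokinase receptor, fell from 37.7 ± 0.376 to 20.9 ± 0.797 CPM (SD, n = 3), at -0.85 ± 0.070 (SE; edgeR adjusted p = 1.89e-10). The tetraspanin CD9 fell by 0.67, and the heparan sulfate proteoglycans SDC4 and SDC1 by 0.64 and 0.28. SDC1 lost its call with scaling by library size alone (-0.23) and without TAK1 shRNA replicate 2 (-0.23).

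In the list for integrin traffic and recycling, 17 of 18 genes were tested, 3 (17.6%) were called lower and 1 (5.88%) higher, against 11.3% and 11.8% of all genes tested, with a median of -0.01. RAB21, a small GTPase that binds α chains and moves β1 integrins into endosomes, fell from 46.8 ± 0.498 to 29.9 ± 1.32 CPM (SD, n = 3), at -0.64 ± 0.065 (SE; edgeR adjusted p = 8.34e-09). ARF6 fell by 0.42 and SWAP70 by 0.33. DAB2, an endocytic adaptor of β1, rose by 0.25, a call that 6 of 14 other settings did not make (0.20 to 0.25 after rounding in those). Over the 6 lists, with each gene counted once, 103 of 117 genes were tested, 26 (25.2%) were called lower and 9 (8.74%) higher. Of these, 22 and 6 kept the call in all 14 other settings with the same fold threshold. The lists were written with earlier results of these data known, and no list was tested against the background.

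**Figure D5:**
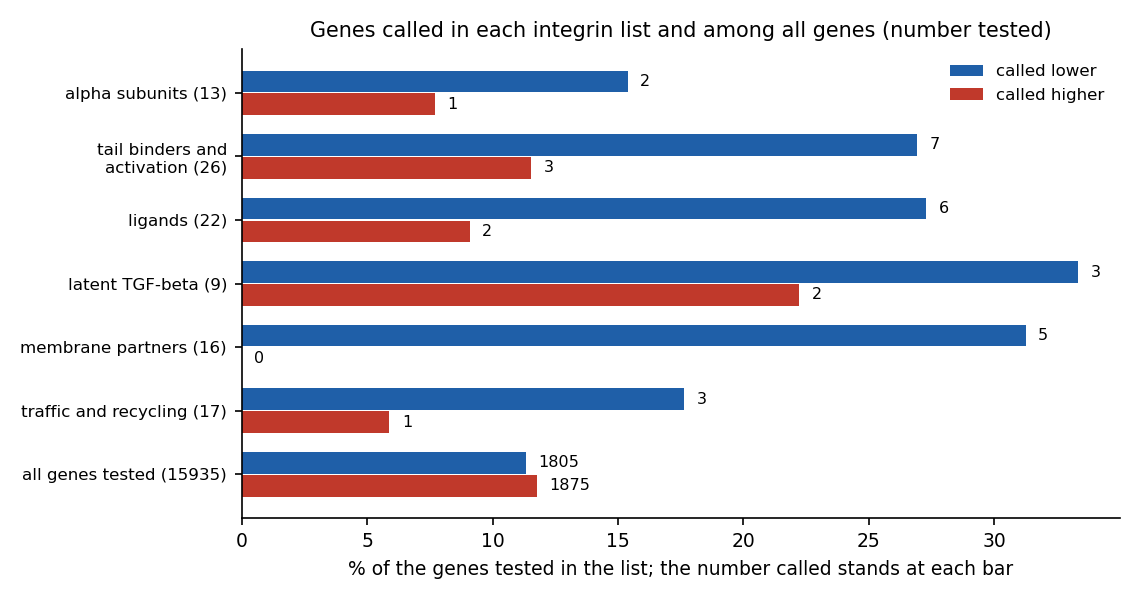
Share of the tested genes called lower (blue) and higher (red) in each integrin list, in percent on an axis from 0, with the number called at each bar and the number tested in brackets. The bottom row gives all 15935 genes tested, with 1805 called lower and 1875 called higher.

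For each subunit with a mean of at least 1 CPM, the genes with the most similar pattern were sought among 13471 others at that level. Likeness was the root mean square distance of log2(CPM + 0.5), centred on each gene's mean, over the 6 samples. COX7C, PFN2 and IFIT2 were nearest to ITGB1, at distances of 0.0441, 0.0479 and 0.0546, and had log2 fold changes of -1.35, -1.28 and -1.41. DIAPH3, EPHB4 and PFN1 were nearest to ITGB5, at 0.0151, 0.0232 and 0.0271. The patterns of ITGB1 and ITGB5 differ mainly between the groups, so similar log2 fold changes of their nearest genes follow from the measure. Shared regulation was not tested. The nearest genes to ITGB2 were ITPKC, KCNMB4 and SPIRE1, and those to ITGB8 were ADCY7, PRICKLE1 and PEF1. For ITGB4 they were AC007969.1, AC012615.6 and LINC01031, and for ITGB6 FTOP1, DHPS and ELF3-AS1. At the low counts of ITGB2, ITGB4, ITGB6 and ITGB8 such likeness rests in part on counting error. ITGB3 and ITGB7 were below the limit, with means of 0.854 and 0.0491 CPM over the 6 samples.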

How the data were processed

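The authors sequenced RNA of 3 scrambled shRNA and 3 TAK1 shRNA samples of RD cells and deposited raw counts of reads per gene. The submitters' processing notes name CASAVA, STAR and the build GRCh38 (hg38). The counter, its annotation, strand use and multiply matched reads are not given in the sources used here. Groups and replicates come from sample titles.

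Counts of 15935 genes passing filterByExpr were normalized by TMM and tested with edgeR 4.0.16 in R 4.3.3 (robust quasi-likelihood test, Benjamini-Hochberg adjustment over all genes tested), after a check of the code on simulated data. Called genes had an adjusted p under 0.05 and a log2 fold change whose size reached 0.25. The SE of a log2 fold change was its size divided by the square root of the F statistic of the quasi-likelihood test. It was thus derived from that test, and for a member it is a description. CPM and RPKM were computed from the deposited counts, RPKM with exon lengths from GENCODE 44. Alternatives were RLE, upper quartile and library size scaling, no filter or at least 10 counts in every sample, DESeq2 1.42.0, limma 3.58.1 (voom), a replicate block, fold thresholds of 0.5 or none, other gene lengths, and leaving out each sample. Total counts ran from 28839898 to 34469323, and the common biological coefficient of variation was 5.67%, so counting error matters mainly for genes with low counts. Replicates of a group differed by more than sampling noise (chi-square per degree of freedom 2.88 to 8.74).

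Named genes were the 8 β subunits, MAP3K7, α subunits with a mean of at least 1 CPM, called genes of the other integrin lists with a mean of at least 1 CPM (up to the 4 largest changes in each direction), rows whose symbol holds a subunit's name, the 3 genes nearest in pattern to each subunit, and the most abundant marker of each list. Outside this rule, the text also names other markers, α subunits under 1 CPM, TLN1, and genes overlapping a subunit or sharing its sequence. The members and lists were chosen with earlier results of these data known. Pseudogene and read-through rows under other names are not analysed here.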

Additional observations from a re-analysis of the deposited data

How the results depend on the processing

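MAP3K7 kept its call under all 14 alternatives (-1.36 to -1.25). So did ITGB1, ITGB3 and ITGB5 wherever tested, which is no sign of stability, since the same 6 samples led to the choice of the family; requiring 10 counts in each sample left ITGB3 untested and so 2 subunits called lower. Of the 97 other fits of single subunits, 89 changed no call, 7 lost the call of ITGB2 and 1 called ITGB6. In those 7 the log2 fold change of ITGB2 was 0.39 to 0.53, above the fold threshold, and the adjusted p was not under 0.05. The count of subunits called higher was 0 with DESeq2 and with no filter, (2 at an unadjusted p under 0.05, from which nothing is read), was 0 to 1 with a sample left out, and was 0 at a fold threshold of 0.5 in edgeR (1 at an unadjusted p under 0.05). At that threshold ITGB5 was not called, 683 genes were called lower and 739 higher, and of the list genes 12 and 0 (0 also at an unadjusted p under 0.05). With no fold threshold 2748 genes were called lower and 2585 higher, and of the list genes 37 and 16. These shifts follow from the thresholds; the causes of the others were not tested. The ratio of ITGB1 to ITGB5, 0.74 per exon length in scrambled shRNA and 0.40 in TAK1 shRNA, was 1.31 and 0.708 with the longest transcript, 1.65 and 0.895 in CPM and 1.97 and 1.06 with the canonical transcript, a length added after the data were seen. Whether the replicate numbers pair the samples was not resolved. Deviations of samples with the same number correlated weakly, at 0.0165 to 0.0370, and 5 of 6 samples correlated best with their own number. With the replicate block 1864 genes were called lower and 1968 higher, against 1805 and 1875 without it. Counts were low for ITGB3, ITGB6 and ITGB7 (under 80 in every sample) and for ITGB8 (71 to 86). The smallest difference detectable at these counts was not tested.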
